A study of Rattus norvegicus with 4 samples.

Results

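In total, 64 receptor genes for neurotransmitters and extracellular purines were followed in colon tissue of rats given mesenchymal stem cells (MSCs) and of control rats. The genes were chosen by symbol in the RefSeq gene table (receptors and subunits for serotonin, acetylcholine, noradrenaline, dopamine, histamine, ATP and other nucleotides, tachykinins, somatostatin, opioids, GABA and glutamate). Of 115 gene symbols of this kind with a row on the array, 64 had values on all 4 arrays and 51 were blank on all 4 (1 of these, Oprpn, carries a receptor-like symbol without being a receptor). The 64 members stand among 18350 measured rows, 1 row per gene being kept, the one with the highest mean (Gria2 alone had 2 measured rows).

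The MSCT group comprised 2 male rats in which inflammatory bowel disease (IBD) had been induced in the colon with 2,4,6-trinitrobenzene sulfonic acid (TNBS) in ethanol and which then received, through the tail vein, MSCs that carry green fluorescent protein. The control group comprised 2 male rats without transplantation. The sample descriptions call them normal rats, whereas the paper and the series' design text also call them IBD controls, so whether they received TNBS is not settled, and the effect of the transplantation cannot be told apart from that of colitis in these arrays. All rats were Sprague Dawley, their age was not given in the sources used here, the pieces covered the lesion region, and the day of sampling differs between passages of the paper. RNA was hybridised to one-color NimbleGen arrays, with 1 array per sample, and each sample is taken here as 1 rat.

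Receptors of this kind fall into ligand-gated ion channels, which open at once, and G protein-coupled receptors, which act through intracellular messengers. In the colon wall, nicotinic, 5-HT3 and P2X channels carry fast signals between neurons of the enteric ganglia, muscarinic and tachykinin receptors drive contraction of the muscle, and receptors for nucleotides, somatostatin and adrenaline are also found on epithelial and immune cells. In a piece of whole tissue, fewer cells of a type and less RNA per cell cannot be told apart.

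The rows of these receptors were dim. Of the 64 members, 41 (64.1%) lay in the dimmest 25% of all measured rows by mean intensity and 2 in the brightest 25%. Brightness also depends on the probe and was not used to rank receptors against each other. The control arrays were more than 2-fold apart in 17 members (26.6%) against 8.73% of all rows, and the MSCT arrays in 14 members (21.9%) against 7.49%. Among the dimmest 25% of rows the shares were 21.7% for the control and 22.6% for the MSCT arrays, and among the 41 members there 34.1% and 29.3%. In 11 members control replicate 2 lay more than 2-fold above control replicate 1, as in Adra1b (6.20 and 8.55 on the log2 scale, control replicates 1 and 2) and Grin2c (6.37 and 8.68), and 10 of these 11 had a higher mean in the MSCT group. In 6 members (Drd2, Gabrr2, Grin3b, P2rx1, P2rx5 and Sstr3) control replicate 1 lay that far above control replicate 2. Of all rows, 996 went the first way and 606 the other. The 11 members in the brighter 50% of rows had no pair of replicates that far apart.

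**Figure D1:**
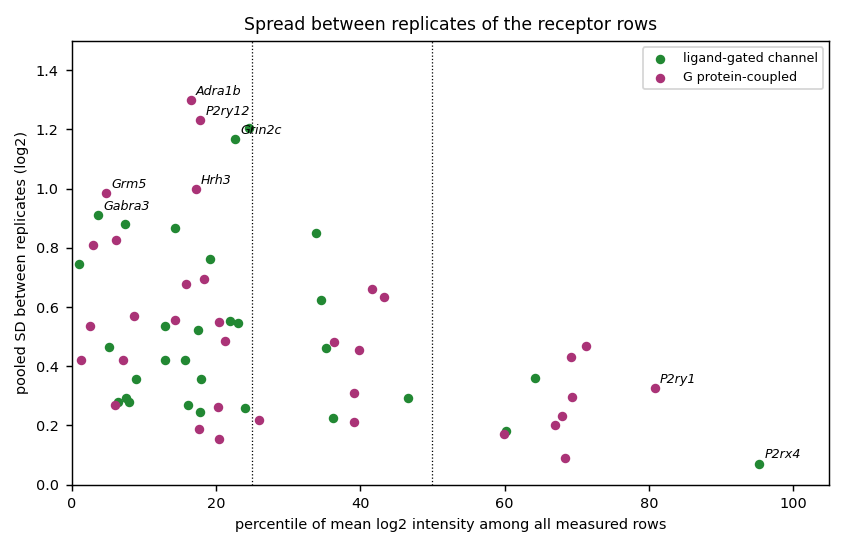
The pooled standard deviation between replicates (log2 scale, vertical axis) is plotted against the percentile of each row's mean log2 intensity among all measured rows (horizontal axis) for the 64 receptor genes. Dotted lines mark 25% and 50% of rows, and the large spreads of Adra1b, P2ry12 and Grin2c lie left of the first line.

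The main question of the chips was which genes differ between the MSCT and the control group. By limma, 5 of the 64 receptors (7.81%) had lower values in the MSCT group past the screen (unadjusted p below 0.05 together with more than 2-fold) (P2rx2, Htr1b, Tacr3, Gabrp and Chrna3). Of all rows, 2.51% passed in this direction. No receptor passed with higher values, against 2.12% of all rows. In the dimmer 50% of rows, where 53 of the members lay, 4 members passed with lower values (7.55%) and none with higher values, against 3.85% and 2.72% of the rows there. Without the limit on fold change, 10 receptors (15.6%) were lower at an unadjusted p under 0.05 and 2 (3.12%) were higher, against 7.17% and 4.80% of all rows. Control and MSCT arrays were fully separated in 18 members with lower values (28.1%, against 24.5% of all rows) and in 14 with higher values (21.9%, against 21.3%), which is near the background in both directions. No receptor passed an adjusted p of 0.05 (smallest adjusted p 0.260), nor did any other row (0.0%). By a plain equal-variance test without moderation, which for a pair of groups equals the variance analysis named in the paper's methods, 2 receptors (P2rx2 and Tacr3) had a p under 0.05 with lower values and 1 (P2rx4) with higher values.

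The lower and the higher receptors did not add up to a shift of the whole set. In total 35 members were higher and 29 lower, with a median log2 difference (MSCT minus control) of 0.12 against -0.02 over all rows, and in the brighter 50% of rows the median of the 11 members was -0.18. By receptor type, 7 of the 30 channel subunits were lower at p under 0.05 and 0 higher, and of the 34 G protein-coupled receptors 3 were lower and 2 higher. Of all rows, 7.17% were lower and 4.8% higher at this p. Of the 7 channel subunits, 4 were nicotinic. In the dimmest 25% of rows lay 22 of the channel subunits and 19 of the G protein-coupled receptors. Whether these types differ was not tested. Where an array was left out, its group was a single array assumed to vary like the other group, whose pair of arrays alone gave the measured spread. A p under 0.05 gained or lost in this way shows how far a value rests on 1 array, and is no test of stability.

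**Figure D2:**
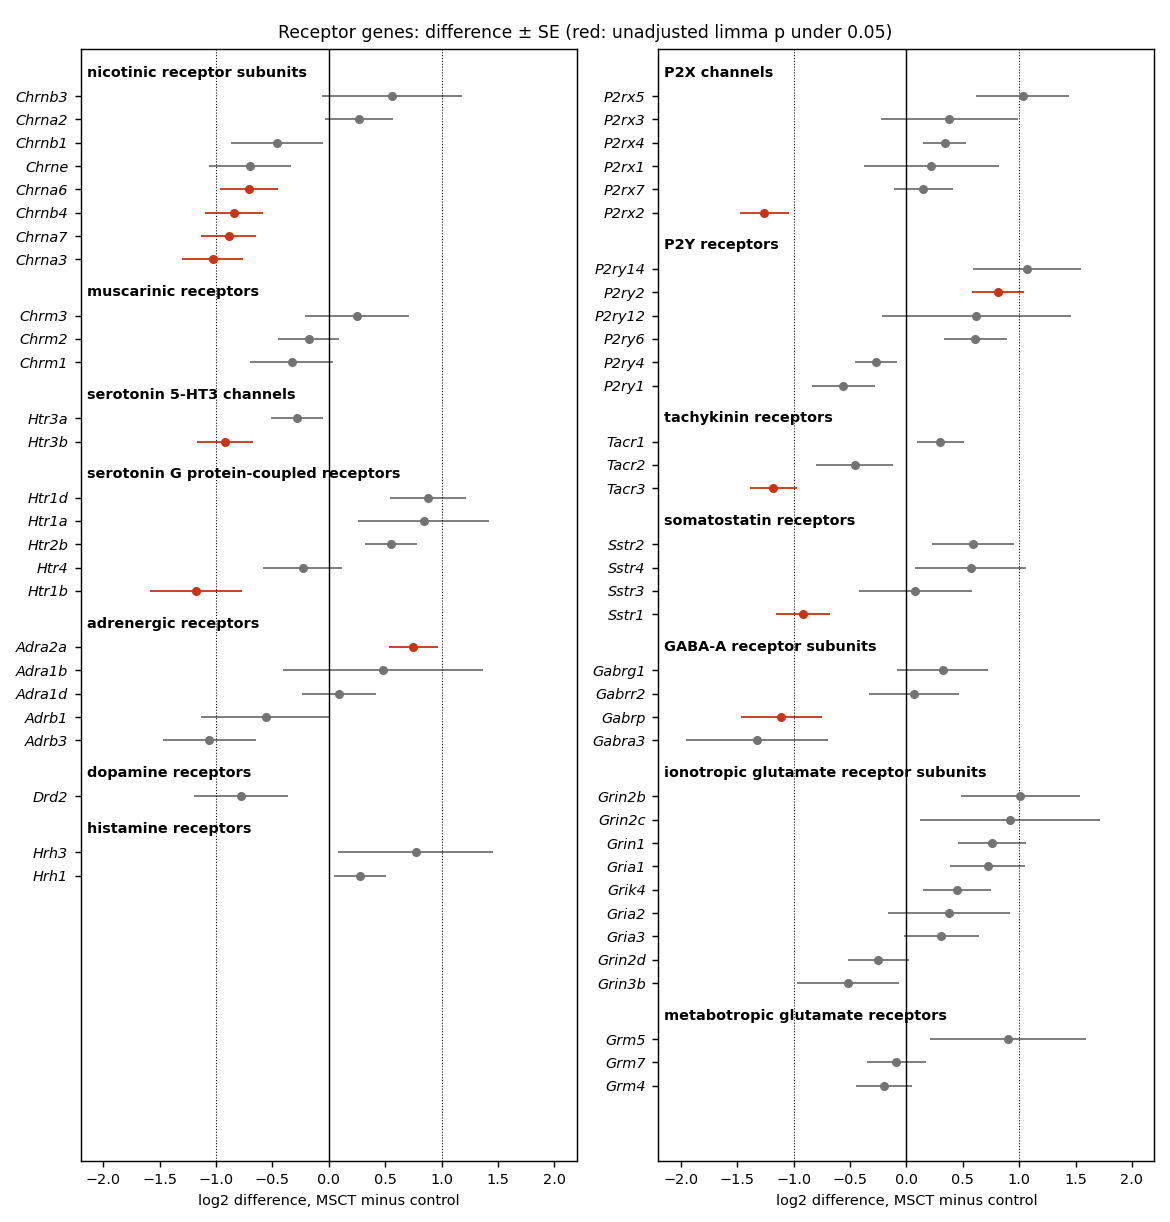
Log2 difference of intensity (MSCT minus control) for 61 of the 64 receptor genes, grouped by family. Points are differences of group means (2 arrays per group), bars are limma standard errors, dotted lines mark 2-fold, and the 12 red points (10 left of 0, 2 right) have an unadjusted limma p under 0.05.

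Nicotinic receptors are pentameric cation channels opened by acetylcholine. The α3 and β4 subunits form the receptor of autonomic ganglia, and their genes, Chrna3 and Chrnb4, are neighbours beside Chrna5 in the RefSeq gene table of GRCr8. Both were lower in the MSCT group, so the 250 bases before each annotated start are shown (RefSeq, GRCr8, 5′ to 3′ on the minus strand, chr8:64311252-64311501 for Chrna3 and chr8:64333110-64333359 for Chrnb4). Capitals mark the GC box, GGGCGG on either strand, which begins at -116 and -24 from the start of Chrna3 and at -79 from that of Chrnb4.
Chrna3: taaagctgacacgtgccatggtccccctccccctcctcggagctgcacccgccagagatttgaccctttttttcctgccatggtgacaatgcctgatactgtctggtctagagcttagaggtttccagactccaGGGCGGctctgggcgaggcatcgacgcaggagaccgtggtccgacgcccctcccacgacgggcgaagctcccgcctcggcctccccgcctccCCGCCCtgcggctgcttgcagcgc
Chrnb4: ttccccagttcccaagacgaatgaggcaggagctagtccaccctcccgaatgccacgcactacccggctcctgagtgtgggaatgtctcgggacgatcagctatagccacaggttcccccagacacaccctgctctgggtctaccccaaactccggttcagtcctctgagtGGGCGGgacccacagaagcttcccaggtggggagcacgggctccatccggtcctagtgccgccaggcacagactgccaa
Of all 33469 promoters in the table, 30.5% hold a GC box in this window, and so do 16 of the 43 receptor members found there. Of the other motifs searched on both strands, the E-box CAGGTG was found before Chrnb4 (15.9% of all promoters), while neither window held the cAMP response element TGACGTCA (1.59%) or the TATA box TATAAA (12.9%). None of these matches overlapped a GC box, and they describe the letters only.

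Chrna3 (NM_052805) had log2 intensities of 10.37 and 9.78 in the controls, against 9.01 and 9.08 after MSCT. The MSCT arrays lay close together and below both control arrays. The difference was -1.03 (standard error 0.27, limma adjusted p = 0.328), or 2.04-fold. Chrnb4 (NM_052806) lay at 7.76 and 8.26 on the control and at 7.06 and 7.28 on the MSCT arrays, again without overlap, a difference of -0.84 (standard error 0.26, limma adjusted p = 0.354). Chrna7, whose subunit forms channels by itself on neurons and macrophages, lay at 8.01 and 8.25 against 7.45 and 7.02, and Chrna6, a subunit of catecholamine neurons, at 7.78 and 7.23 against 6.76 and 6.84. All 4 genes were thus lower on both MSCT arrays than on either control array, as were 24.5% of all rows. Being the nicotinic genes with an unadjusted p under 0.05 in these arrays, they gain no further support from this. The differences were -0.89 and -0.71 for Chrna7 and Chrna6 (limma adjusted p = 0.337 and 0.413). Of the muscle-type subunits, Chrne differed by -0.70 and Chrnb1 by -0.46 (standard errors 0.36 and 0.41), with an overlap of the arrays only in Chrnb1. Chrna2 and Chrnb3 differed by 0.27 and 0.56 with overlapping arrays. Over the 8 measured subunits the median difference was -0.71. All 8 lay in the dimmer 50% of rows and 6 of them in the dimmest 25%. Chrna1, Chrna4, Chrna5, Chrna9, Chrna10, Chrnb2, Chrnd and Chrng were blank. Chrna3 exceeded a p of 0.05 without MSCT replicate 1 (-0.99), Chrna7 without control replicate 2 (-0.78) or MSCT replicate 2 (-0.68), Chrnb4 without control replicate 2 (-0.59), MSCT replicate 1 (-0.73) or MSCT replicate 2 (-0.95), and Chrna6 without control replicate 1 (-0.43), MSCT replicate 1 (-0.66) or MSCT replicate 2 (-0.75) and with equal array medians (-0.67) or quantile normalization (-0.66). With intensity-dependent variance, Chrna6, Chrna7 and Chrnb4 also exceeded it. Chrne passed it without MSCT replicate 1 (-1.14) and Chrnb1 without MSCT replicate 2 (-0.97).

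**Figure D3:**
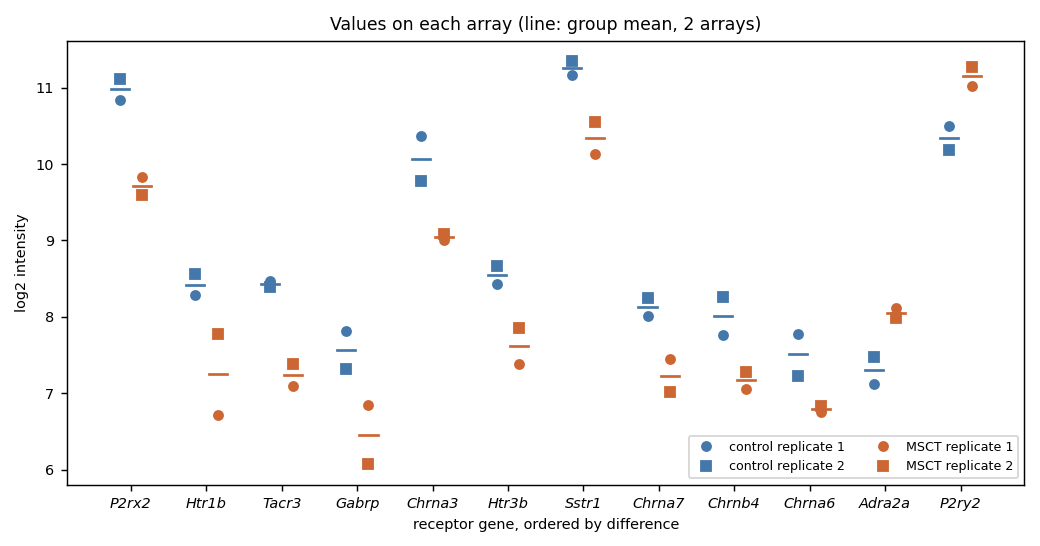
Log2 intensity on each of the 4 arrays for the 12 receptor genes with an unadjusted limma p under 0.05, ordered by difference. Circles and squares are replicates 1 and 2, lines are group means, and control arrays are blue and MSCT arrays orange. The groups do not overlap in these 12 genes, which were picked by their p in the same arrays, so the separation is no further support.

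Muscarinic receptors, through which acetylcholine contracts the muscle layer and stimulates secretion, did not pass the test. Chrm2, the most abundant muscarinic receptor of gut smooth muscle, had log2 intensities of 11.25 and 10.70 on the control and 10.88 and 10.71 on the MSCT arrays. The values overlapped, and the 95% confidence interval of the difference by limma ran from -0.89 to 0.53. Chrm3, the receptor that triggers contraction, lay at 8.69 and 9.75 against 9.13 and 9.83 (interval from -0.98 to 1.49), and Chrm1 differed by -0.33 (interval from -1.31 to 0.65). Of the 3 intervals, that of Chrm1 reaches a difference as low as the -1.03 of Chrna3.

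Serotonin, released by enterochromaffin cells, acts on 5-HT3 channels of nerve endings and on several G protein-coupled receptors. Htr3b, which encodes a subunit that joins Htr3a in 5-HT3 channels, had log2 intensities of 8.43 and 8.66 in the controls and 7.39 and 7.86 after MSCT. The groups did not overlap, and the difference was -0.92 (standard error 0.25, limma adjusted p = 0.337). Htr3a, the subunit no 5-HT3 channel lacks, lay at 8.93 and 9.13 against 8.94 and 8.55, with overlap and a difference of -0.28 (standard error 0.23). Htr1b, an inhibitory receptor on nerve terminals and vessels, lay at 8.28 and 8.56 on the control and at 6.71 and 7.78 on the MSCT arrays. Its MSCT arrays were far apart, both below the controls, and the difference of -1.18 (standard error 0.41, limma adjusted p = 0.398) passed the screen. Htr1d, Htr1a and Htr2b were higher by 0.88, 0.84 and 0.55 without passing the test (standard errors 0.34, 0.58 and 0.23), and all 3 passed p under 0.05 without control replicate 2 (1.30, 1.63 and 0.74). Htr4, a receptor that promotes propulsion, differed by -0.23 (interval from -1.17 to 0.71). Htr1b exceeded a p of 0.05 without control replicate 1 (-1.32), control replicate 2 (-1.04) or MSCT replicate 1 (-0.64), and Htr3b without control replicate 2 (-0.81) or MSCT replicate 1 (-0.69). Htr1b also exceeded it with array weights and Htr3b with intensity-dependent variance.

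Of the 12 measured receptors for ATP and other nucleotides, P2rx2 was lower and P2ry2 higher at a p under 0.05. P2rx2 (NM_053656) encodes an ATP-gated channel of enteric and sensory neurons. Its log2 intensities were 10.84 and 11.11 in the controls and 9.83 and 9.59 after MSCT (linear intensities of 1833 and 2210 against 913 and 773). Both MSCT arrays lay about a full log2 unit below both control arrays, and the difference was -1.26 (standard error 0.22, limma adjusted p = 0.260), or 2.40-fold. Leaving out single arrays gave differences from -1.40 to -1.13. P2rx2 was the only receptor past a limma adjusted p of 0.05 when the variance was allowed to depend on intensity. It was also the only one when the dimmer 50% of rows were left out. The first fit also used limma's robust setting, so the part of each change cannot be told apart. P2rx2 was not alone among all rows, of which 387 of 18350 passed in the first case. In the second case 247 of the rows kept passed.

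The other 5 P2X channels had higher means in the MSCT group. P2rx4, a channel of macrophages and epithelium, lay at 13.02 and 12.88 on the control and at 13.28 and 13.29 on the MSCT arrays. The groups did not overlap, and the difference was small, 0.34 (standard error 0.19, limma adjusted p = 0.537). P2rx5 was 2.04-fold higher (8.01 and 6.98 against 8.70 and 8.35, standard error 0.41), while P2rx1, P2rx3 and P2rx7 had overlapping arrays and differences of 0.22, 0.38 and 0.15. P2rx5 passed p under 0.05 without control replicate 1 (1.55) and P2rx3 without MSCT replicate 2 (1.18).

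Among the P2Y receptors, P2ry2, a receptor for ATP and UTP that stimulates chloride secretion in epithelium, had log2 intensities of 10.50 and 10.18 on the control and 11.02 and 11.27 on the MSCT arrays. Both MSCT arrays were higher, by 0.81 in the mean (standard error 0.23, limma adjusted p = 0.338), and a p under 0.05 was lost without control replicate 2 (0.65) or MSCT replicate 2 (0.68). P2ry6, the UDP receptor, and P2ry14, the receptor for UDP-glucose, were higher by 0.61 and 1.07, also without overlap (standard errors 0.28 and 0.48), and P2ry14 passed p under 0.05 without MSCT replicate 1 (1.61). P2ry1, an ADP receptor through which purines relax the gut muscle, lay at 12.25 and 11.60 against 11.35 and 11.37, a difference of -0.56 (standard error 0.28), which passed p under 0.05 without control replicate 2 (-0.89). P2ry4 differed by -0.27, with an interval from -0.78 to 0.24. In P2ry12, the ADP receptor of platelets and microglia, the MSCT arrays were furthest apart of all members, at 9.22 and 6.76, around control values of 7.43 and 7.32. Its difference was 0.62 (standard error 0.84), and without MSCT replicate 2 it was 1.85, with p under 0.05.

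Tachykinin receptors bind substance P (Tacr1), neurokinin A (Tacr2) and neurokinin B (Tacr3). Tacr3 (NM_017053), a receptor of enteric neurons, lay at 8.47 and 8.39 on the control and at 7.09 and 7.39 on the MSCT arrays. The control arrays were nearly equal and both MSCT arrays lay about a log2 unit lower, a difference of -1.18 (standard error 0.21, limma adjusted p = 0.260), or 2.27-fold. Leaving out each array gave differences from -1.33 to -1.03. The row of Tacr3 was dim, at percentile 20.4 of all measured rows. Tacr1, at 10.02 and 10.33 against 10.54 and 10.41, and Tacr2, the contractile receptor of the muscle, at 11.53 and 10.67 against 10.67 and 10.62, differed by 0.30 and -0.46 (standard errors 0.21 and 0.34). Without control replicate 2, Tacr2 differed by -0.89, with p under 0.05.

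Of the inhibitory somatostatin receptors, Sstr1 had log2 intensities of 11.17 and 11.35 on the control and 10.13 and 10.55 on the MSCT arrays. Both MSCT arrays were lower, with a difference of -0.92 (standard error 0.24, limma adjusted p = 0.327). A p under 0.05 was lost without control replicate 2 (-0.83) or MSCT replicate 1 (-0.71). Sstr2, a main receptor of somatostatin on endocrine and epithelial cells, lay at 10.33 and 11.09 against 11.59 and 11.02, with overlap and a difference of 0.59 (standard error 0.36), and Sstr3 and Sstr4 differed by 0.08 and 0.57. Sstr3 passed p under 0.05 without control replicate 1 (0.77) and Sstr4 without control replicate 2 (1.24). The genes of all opioid receptors with a row (Oprm1, Oprd1, Oprk1 and Oprl1) were blank, as was Sstr5.

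Adrenergic receptors bind noradrenaline of sympathetic fibres, and the α2A receptor, encoded by Adra2a, lowers transmitter release and fluid secretion. Adra2a lay at 7.12 and 7.48 on the control and at 8.11 and 7.99 on the MSCT arrays. Both MSCT arrays were higher, a difference of 0.75 (standard error 0.22, limma adjusted p = 0.344). A p under 0.05 was lost without control replicate 1 (0.57), MSCT replicate 1 (0.69) or MSCT replicate 2 (0.81) and with intensity-dependent variance. The β receptors Adrb3 and Adrb1 had lower means, with differences of -1.06 and -0.56, and neither passed the test. Adrb3, which relaxes gut muscle, lay at 7.80 and 8.22 against 6.44 and 7.46 (standard error 0.41). Without MSCT replicate 2, Adrb3 and Adrb1 passed p under 0.05 (-1.58 and -1.28). Drd2, the one dopamine receptor measured, differed by -0.78 (standard error 0.42, and -1.30 with p under 0.05 without control replicate 2). Hrh1, the histamine receptor of vessels and muscle, differed by 0.28 (interval from -0.33 to 0.89) and Hrh3 by 0.77 (interval from -1.08 to 2.61).

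All 5 measured subunits of GABA-A receptors and 12 of the 13 glutamate receptors lay in the dimmer 50% of rows. Gabrp, the π subunit of the GABA-A chloride channel that is found mostly outside the brain, lay at 7.82 and 7.32 on the control and at 6.85 and 6.07 on the MSCT arrays. Both MSCT arrays were lower, and its difference of -1.11 (standard error 0.36, limma adjusted p = 0.370) passed the screen, but exceeded a p of 0.05 without control replicate 1 (-0.86) or MSCT replicate 2 (-0.72) and with intensity-dependent variance. Gabra3 had a larger difference, -1.33, with arrays more than a log2 unit apart in both groups (6.97 and 8.23 against 5.61 and 6.92), and passed p under 0.05 without MSCT replicate 2 (-1.99). Gabrr2 differed by 0.07, with an interval from -0.99 to 1.12.

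Of the 9 subunits of ionotropic glutamate receptors, 7 had higher means in the MSCT group, none at a p under 0.05. Grin1, the subunit common to NMDA receptors and the only one of the 9 in the brighter 50% of rows, lay at 9.86 and 10.53 on the control and at 10.84 and 11.08 on the MSCT arrays. The groups did not overlap, and the difference was 0.76 (standard error 0.30, limma adjusted p = 0.434), and it passed p under 0.05 when the dimmer 25% or 50% of rows were left out. Grin2b and Grin2c were higher by 1.01 and 0.92, where control replicate 1 was far below the other arrays (5.49 and 6.37). Without control replicate 2, which leaves control replicate 1 alone and takes the spread of the control arrays out of the error, Grin1, Grin2b, Grin2c, Gria1 and Grik4 had higher values at a p under 0.05 (differences of 1.10, 1.75, 2.08, 1.09 and 0.81) and Grin3b a lower value (-1.13). Gria2 was higher in both its rows, by 0.38 (NM_017261) and 1.20 (NM_001083811), with standard errors of 0.54 each. Of the metabotropic receptors, Grm5 differed by 0.90 (standard error 0.69), Grm4 by -0.20 and Grm7 by -0.09.

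Several of the lower receptors are known from enteric neurons, and a list of 14 marker genes of enteric neurons was therefore set beside them. Of the 13 with a measured row, all had lower means in the MSCT group (median log2 difference -0.69). At an unadjusted limma p under 0.05 were 7 of them, against 7.17% of all rows in this direction. In 11 (84.6%) the groups did not overlap, against 24.5% of all rows with lower values. The summed linear intensity of the list was 17446 and 15979 in the controls and 10479 and 11301 after MSCT. Stmn2, a microtubule regulator of neurons, lay at 11.17 and 10.91 against 9.86 and 10.22 (difference -1.0), Elavl4, a neuronal RNA-binding protein, at 10.13 and 9.35 against 8.78 and 8.58 (-1.06), and Uchl1, which encodes the neuronal marker PGP9.5, at 12.10 and 12.10 against 11.58 and 11.54 (-0.54). No measured marker was listed at 0. The part of these markers in the lower receptor values was not tested. With single arrays left out, the number of markers at a p under 0.05 was 1 without control replicate 1, 5 without control replicate 2, 1 without MSCT replicate 1 and 3 without MSCT replicate 2.

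**Figure D4:**
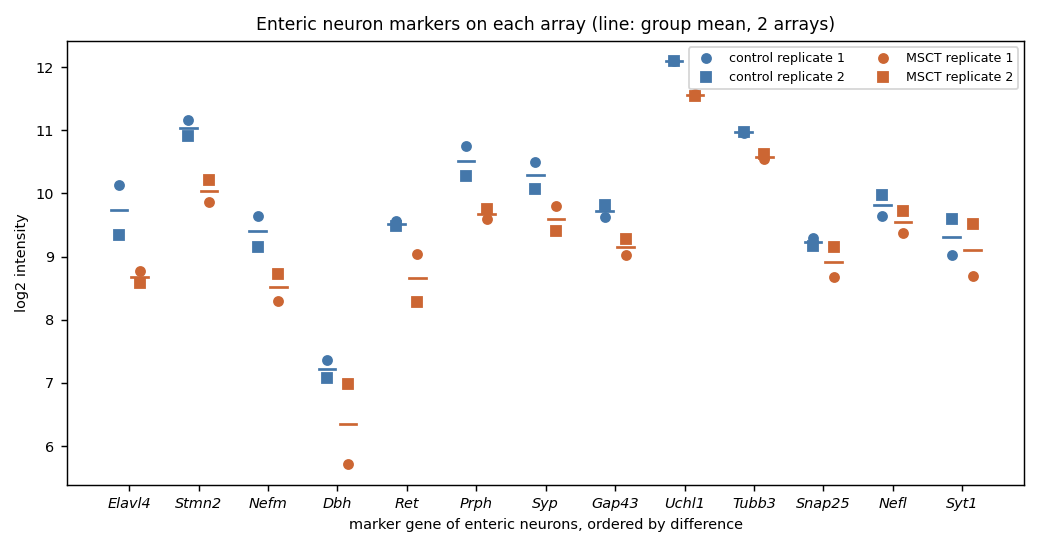
Log2 intensity on each of the 4 arrays for the 13 measured marker genes of enteric neurons, ordered by difference. Circles and squares are replicates 1 and 2 and lines are group means. The control and MSCT arrays overlap only in Nefl and Syt1.

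Markers of other cells were read in the same way, and no difference between marker lists was tested. Of all rows, 4.8% were higher and 7.17% lower at an unadjusted limma p under 0.05. Past the screen the shares of all rows were 2.12% and 2.51%. Of the 5 smooth muscle markers measured, none had a p under 0.05 (median difference 0.02). Their summed intensity was 171485 and 141287 on the control and 159204 and 154976 on the MSCT arrays. Nor had any of 8 epithelial or 5 glial markers a p under 0.05 (medians 0.18 and 0.01). All 5 smooth muscle and 7 of the 8 epithelial markers lay in the brightest 25% of rows (median percentiles 99.8 and 99.4). Whether rows this bright could show differences as large as dimmer rows was not tested. Macrophage markers were higher in 5 of 6 genes at a p under 0.05 (median 1.14, with C1qb, Cd68, C1qa and Csf1r past the screen, summed intensity 13645 and 14944 against 18569 and 20900). Of the members named above as found on macrophages, P2rx4 differed by 0.34 and Chrna7 by -0.89. Among enteroendocrine markers 3 of 7 were higher (median 0.63), with Gcg past the screen, among T and NK cell markers 3 of 6 (Gzmb, Zap70 and Nkg7) and among mast cell markers 1 of 4 (Gata2), the mast cell genes Fcer1a, Ms4a2 and Cma1 being blank. Of 6 skeletal muscle markers 2 were higher, which included Acta1 (difference 2.06), while the muscle-type nicotinic subunits Chrnb1 and Chrne had lower means. Of 2 squamous epithelium markers 1 (Krt15) was lower, and none of 2 endothelial markers or the 1 marker measured for interstitial cells of Cajal had a p under 0.05. How far these cells take part in the receptor values was not tested.

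The ligands and partners of the receptors were read from lists of genes for transmitter handling. Past the screen were 2.12% of all rows with higher and 2.51% with lower values. Of 7 peptide ligands, 3 were higher past the screen and none lower. These were Tac3, which encodes neurokinin B, the ligand of Tacr3 (7.74 and 8.11 on the control and 9.04 and 9.39 on the MSCT arrays, difference 1.29, limma adjusted p = 0.285), Tac4 (difference 1.48) and Pnoc, the precursor of nociceptin (1.01). The rows of Tac3, Tac4 and Pnoc were dim, at percentiles 31.4, 17.7 and 2.8 of all measured rows. Ligand and receptor differed in opposite directions for Tac3 and Tacr3. This did not hold throughout for Sst, the somatostatin gene, which differed by 0.41. Sstr1 differed by -0.92, but Sstr2, Sstr3 and Sstr4 by 0.59, 0.08 and 0.57. A relation between ligands and receptors was not tested. Tac1, the precursor of substance P, lay at 9.88 and 8.55 against 8.86 and 8.47, with overlap. Of 17 genes for synthesis, storage and transport, Slc6a4, the serotonin transporter, was lower (10.89 and 11.11 against 10.55 and 10.12, difference -0.67, standard error 0.24) and Slc18a1, which loads amines into vesicles of endocrine cells, higher (difference 1.52). Of 8 genes for breakdown, Aoc1, which degrades histamine, was higher by 0.92 (standard error 0.21), and Ache, which degrades acetylcholine, differed by -0.39 (standard error 0.18). Of 20 genes for nucleotide hydrolysis, release and adenosine, only Alpi had a p under 0.05 (difference 1.39), and the ectonucleotidase Entpd1 differed by -0.13 and the adenosine receptors Adora2a and Adora2b by 0.48 and 0.23.

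Genes that couple receptors to their signal or switch them off changed in both directions by the unadjusted test. Of 48 measured, 5 were higher and 6 lower at a p under 0.05 (median difference 0.02), against 4.8% and 7.17% of all rows. Arrb1, which encodes β-arrestin 1 and uncouples G protein-coupled receptors, lay at 11.22 and 11.31 on the control and at 9.68 and 9.73 on the MSCT arrays. Its replicates were almost equal and the groups far apart, with a difference of -1.56 (standard error 0.18, limma adjusted p = 0.257). Grk3, a receptor kinase that acts before arrestin, differed by -1.25, and Rgs1, Gnb5, Adcy5 and Adcy3 by -0.95 to -0.66. Gna14, an α subunit of the Gq family, was higher by 2.02 (6.45 and 6.65 against 8.60 and 8.55), Rgs16, which ends signals of Gi and Gq, by 1.78, and Adcy2, Rgs7 and Gna15 by 1.19, 1.02 and 0.87. None of the 24 genes for receptor clustering and assembly had a p under 0.05 by limma (median difference 0.04).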

How the data were processed

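Colon RNA of 2 control and 2 MSCT rats was measured, and the deposited table holds 1 linear intensity per RefSeq transcript and array, which the authors obtained with a GenePix scanner and NimbleScan. The submitters' processing notes name RMA without a role. How probes were combined and why 8070 of 26420 rows are blank was not given in the sources used here, and no value column lacked a sample. Median intensities ran from 848 to 893, and 2 arrays per group limit the precision. Each p-value covers the spread between these samples only.

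Gene names came from RefSeq (GRCr8) (7068 measured rows, 6968 genes). Intensities were taken as log2 values, with no pseudocount, scaling or filter, and limma 3.58.1 (R 4.3.3, lmFit and eBayes) was fitted to all 18350 rows. Benjamini-Hochberg adjustment covered all rows. An exact permutation of 2 against 2 arrays cannot go below a two-sided p of 0.333. The step was tested on simulated data. Named are members at p under 0.05, the 10 largest differences each way, the 2 with the highest mean per family, receptors described in colon, and list genes past the screen. Some genes of these kinds are not reported here, though the counts include them. Further list genes in the text were picked with their values known. The members and lists were chosen with earlier results of these data known. Python 3.11.15 with pandas 2.3.3, scipy 1.17.1 and matplotlib 3.10.9 made the summaries and figures. Alternatives were another test, normalizations, filters, variance models, array weights, the replicate block and each array left out. Further ones were a fold limit of 1.5, linear means and the mean of a gene's rows. The intensity-dependent variance was fitted with limma's robust setting.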

Additional observations from a re-analysis of the deposited data

How the results depend on the processing

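With 2 arrays per group, single arrays decide many receptor values, and most members are dim. With all 4 arrays, P2rx2 and Tacr3 kept a p under 0.05 under every alternative in which they were tested. Some of these could hardly have changed it. The linear means reused the p of the main fit, and a fold limit does not enter a p. The mean of a gene's rows altered the values of Gria2 only. The array weights came out equal within each group, so they set no replicate below the other. Tacr3 was too dim to be kept in the fits without dim rows and was not tested there. With an array left out its group is a single array assumed to vary like the other group, so those p-values say nothing about stability. None of the 12 receptors with p under 0.05 changed direction. No cause of the changes below was tested.

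The number of receptors with higher values past the screen (0) was 1 with intensity-dependent variance, 1 with the replicate block and 2 with a fold limit of 1.5. The number with lower values (5) was 2 by the plain equal-variance test and 10 with a fold limit of 1.5. Leaving out the dimmest 25% of rows kept 23 of the 64 members, of which 2 passed with lower values. Leaving out the dimmest 50% kept 11 members, of which 1 passed with lower values. All of these were among the 5, and these counts cover fewer members. Without the fold limit, the number of higher receptors (2) was 1 by the plain test, which was neither of the 2. It was 4 with quantile normalization, 4 with equal array medians and 8 with the replicate block, each holding the 2. With intensity-dependent variance it was 4, which held 1 of the 2. The number of lower receptors (10) was 2 by the plain test and 6 with intensity-dependent variance, which held 5 of the 10. Of the 23 members kept without the dimmest 25% of rows, 3 were lower, all among the 10. Of the 11 kept without the dimmest 50%, 3 were lower, of which 2 were among the 10. The median receptor difference (0.12) was -0.18 over the members kept without the dimmest 25% or 50% of rows. With single arrays left out it ran from -0.08 to 0.03. The labels do not say whether samples with the same number share more than that number (correlation of their deviations 0.234). The replicate block gave 13 lower receptors with p under 0.05, which held 9 of the 10 and lacked Chrna6.

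In 27 of the 52 uncalled receptors the sign turned with an array left out. The lowest and highest log2 differences of 26 of them follow. They were -0.7 and 1.65 for Adra1b, -0.29 and 0.46 for Adra1d, -1.28 and 0.16 for Adrb1, -0.74 and 0.08 for Chrm1, -0.46 and 0.1 for Chrm2, -0.28 and 0.78 for Chrm3, -0.01 and 0.56 for Chrna2, -0.97 and 0.05 for Chrnb1, -0.17 and 1.28 for Chrnb3, -0.13 and 0.77 for Gabrg1, -0.44 and 0.58 for Gabrr2, -0.28 and 1.05 for Gria2, -0.0013 and 0.61 for Gria3. For the others they were -0.23 and 2.08 for Grin2c, -0.54 and 0.03 for Grin2d, -1.13 and 0.09 for Grin3b, -0.4 and 0.01 for Grm4, -0.29 and 0.1 for Grm7, -0.02 and 1.55 for Hrh3, -0.64 and 0.19 for Htr4, -0.39 and 0.83 for P2rx1, -0.43 and 1.18 for P2rx3, -0.12 and 0.41 for P2rx7, -0.61 and 1.85 for P2ry12, -0.61 and 0.77 for Sstr3, -0.1 and 1.24 for Sstr4. From linear group means, Gabrr2 differed by -0.02 and Sstr3 by -0.08.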
